A study of Mus musculus with 6 samples.

Results

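Immediate early genes are switched on within minutes of a stimulus, from transcription factors already present in the cell, and their transcripts are short-lived. The 10 genes described here are the 3 orphan nuclear receptors of the NR4A family (Nr4a1, Nr4a2 and Nr4a3), the AP-1 subunits Fos, Jun and Junb, the transcription factors Egr1 and Atf3, the early nuclear protein Ier2, and the anti-proliferative cofactor Btg2. They were found by symbol among 37477 Ensembl gene IDs of the deposited table, and each matched 1 ID. The set was chosen by 1 measured difference, the lower Nr4a3 counts of the knockout libraries against wild type. Differences between the genotypes in these 10 genes are therefore given as a description, with no test.

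RNA came from quadriceps of 20-week-old C57BL/6 mice, 3 wild-type (WT) libraries and 3 libraries of mice with a muscle-specific homozygous knockout of estrogen receptor alpha (KO, called MERKO in the design text). Both groups share strain, age, tissue and preparation, and no treatment is named. Neither the promoter that drives the deletion nor the number of animals behind a library is given in the sources used here. If libraries of a group are not separate animals, the spread below is technical. Values of a group are given in the order of replicates 1 to 3 throughout.

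In skeletal muscle the NR4A receptors are known to be induced by exercise, beta-adrenergic signalling and membrane depolarisation, and to regulate genes of glucose and lipid use. They bind DNA without a known natural ligand, so their activity is set largely by how much of them is made. FOS and JUN proteins pair to form AP-1, EGR1 binds GC-rich sites, ATF3 often represses, and BTG2 joins the CCR4-NOT complex that removes poly(A) tails. Signals reach these genes through the kinases ERK, RSK, p38 and PKA and through the factors SRF and CREB.

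Libraries held between 7388365 and 8560244 counts, and 1 count in a library was therefore worth little more than 0.1 CPM (counts scaled to library size). The knocked-out gene Esr1 had 50, 41 and 44 counts across WT and 22, 16 and 16 across KO, with a log2 difference of -1.45 ± 0.23 (SE) that did not pass in edgeR's quasi-likelihood test (adjusted p = 0.145, and 0.000142 without the filter on low counts). Which exons were deleted is not stated in the labels. Markers of muscle fibres summed to between 191987 and 240732 CPM in every library, as in skeletal muscle. That sum does not tell quadriceps from other muscles. Endothelial markers, 5 of 6 lower with a median log2 difference of -0.12, summed to 254 to 278 CPM in WT and 224 to 267 in KO. Smooth muscle and pericyte markers, 4 of 4 tested lower with a median of -0.08, summed to 521 to 562 and 480 to 559 CPM. Macrophage markers, 3 higher and 3 lower, summed to 96.7 to 127 and 113 to 132, and neutrophil markers to 0.137 to 0.887 and 0.828 to 1.21, with Ly6g at 0 in all 6. Red blood cell markers, 4 of 4 lower with a median log2 difference of -0.38, summed to 787 to 1333 CPM in WT and 537 to 1320 in KO. Adipocyte markers, 4 of 5 higher with a median of 0.30, summed to 56.1 to 88.2 and 83.5 to 86.5 CPM. The WT and KO ranges overlapped for each of the 9 marker lists, and no marker was called. Their part in the results below was not tested. KO replicate 1 stood apart in the share of its counts from the mitochondrial genome, 9.53%, against 6.14% to 7.46% in the other 5 libraries. In bulk tissue, fewer cells of a type and less RNA per cell cannot be told apart.

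The NR4A receptors did not move as a family: Nr4a3 was lower in KO, Nr4a2 was higher, and Nr4a1 was spread across the WT values. Their promoters are shown because each holds the same short element at several positions. The window read was the 250 bases before the RefSeq start of the gene in GRCm38, the assembly that mm10 names, 5′ to 3′ on the gene's own strand. Capitals mark TGACG, the core of the element bound by CREB (cyclic AMP response element, CRE), or CGTCA, the same core on the other strand. The sequences come from chr15:101266596-101266845 (plus strand), chr2:57124004-57124253 (minus strand) and chr4:48045055-48045152 (plus strand) for Nr4a1, Nr4a2 and Nr4a3. Of Nr4a3 only the first 98 bases are printed, since GENCODE M21 places the other 152 in its first exon. The Nr4a1 window lies inside the span that GENCODE M21 gives the gene (below), not before it.
Nr4a1: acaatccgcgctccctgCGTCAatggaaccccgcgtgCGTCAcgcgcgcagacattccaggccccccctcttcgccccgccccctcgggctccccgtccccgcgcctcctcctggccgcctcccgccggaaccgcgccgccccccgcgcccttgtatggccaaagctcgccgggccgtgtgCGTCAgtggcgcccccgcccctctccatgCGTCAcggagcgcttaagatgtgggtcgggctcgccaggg
Nr4a2: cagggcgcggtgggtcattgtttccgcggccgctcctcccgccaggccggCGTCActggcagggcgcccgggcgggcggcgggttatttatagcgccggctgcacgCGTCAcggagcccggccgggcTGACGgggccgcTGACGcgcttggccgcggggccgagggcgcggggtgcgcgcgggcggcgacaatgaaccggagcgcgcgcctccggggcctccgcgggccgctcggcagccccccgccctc
Nr4a3: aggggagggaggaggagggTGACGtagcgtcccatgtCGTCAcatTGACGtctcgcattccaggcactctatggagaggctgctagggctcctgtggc
Each of the 3 whole windows holds 4 cores. In Nr4a1 they start at -233, -213, -69 and -40, in Nr4a2 at -200, -144, -123 and -111, and in Nr4a3 at -231, -213, -205 and -147, counted so that the base just before the start is -1. The Nr4a3 core at -147 lies among the 152 bases that GENCODE M21 places in the first exon. A core occurs in 17.8% of all 32851 RefSeq windows of this length.

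Nr4a3 (ENSMUSG00000028341; chromosome 4, 48045153 to 48086447, plus strand, GENCODE M21 on GRCm38), also called NOR-1, had 11, 17 and 17 counts across WT and 6, 9 and 6 across KO. That is 1.47, 2.32 and 2.16 CPM in WT and 0.710, 1.09 and 0.743 CPM in KO. Every KO library was below every WT library. The group means were 1.98 ± 0.451 and 0.847 ± 0.209 CPM (SD, n = 3 each), so that KO stood at 0.427 times WT, and the fitted log2 difference (KO minus WT) came to -1.21 ± 0.37 (SE). These values chose the set. The depth behind them was small: 45 counts over the WT libraries (95% Poisson interval 32.8 to 60.2, counting error only) and 21 over the KO libraries (13.0 to 32.1). Nr4a3 met the filter on low counts, 1.29 CPM before scaling in at least 3 libraries, through its WT libraries alone: 3 WT and 0 KO libraries reached it. A gene admitted that way had to be higher in WT. The authors' deposited table lists a log2 fold change of -1.20 for Nr4a3, and its adjusted p is 1.

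Nr4a1 (ENSMUSG00000023034; chromosome 15, 101254269 to 101274795, plus strand), or Nur77, was the most abundant of the family per length. Its WT values were 2.95, 2.73 and 3.04 CPM, within 1.11-fold of each other. Its KO values were 3.79, 1.57 and 1.86 CPM. KO replicate 1 lay above every WT library and the other 2 KO libraries lay below every one. The log2 difference was -0.27 ± 0.32 (SE), and it moved to -0.76 without KO replicate 1, to -0.03 without KO replicate 2 and to -0.11 without KO replicate 3.

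Nr4a2 (ENSMUSG00000026826; chromosome 2, 57106830 to 57124003, minus strand), or Nurr1, best known from dopamine neurons, was close to the limit of detection. It had 3, 4 and 2 counts across WT and 12, 5 and 6 across KO. On the CPM scale every KO library was above every WT library, at 0.922 ± 0.437 against 0.401 ± 0.147 CPM (SD, n = 3 each). The sums were 9 counts in WT (95% Poisson interval 4.12 to 17.1) and 23 in KO (14.6 to 34.5), and KO replicate 1 gave 12 of the 23. Nr4a2 did not meet the filter on low counts. Fitted without it, the log2 difference was 1.20 ± 0.60 (SE), and 0.74 without KO replicate 1.

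Summed over the family, NR4A counts were 36, 41 and 43 across WT and 50, 27 and 27 across KO. The sums overlapped, with KO replicate 1 highest of all and the other 2 KO libraries lowest. As a share of family CPM per kilobase of exon, Nr4a1 took 66.0% ± 5.62 in WT and 63.5% ± 6.10 in KO, Nr4a3 26.2% ± 4.77 and 15.3% ± 7.85, and Nr4a2 7.85% ± 2.79 and 21.2% ± 1.84 (SD, n = 3 each). Thus Nr4a1 led the family in each library of both genotypes, while the order of Nr4a3 and Nr4a2 differed: Nr4a3 was above Nr4a2 in all 3 WT libraries and in KO replicate 2. These shares hold the Nr4a3 values that chose the set. The order also rests on few counts, 9 of Nr4a3 and 5 of Nr4a2 in KO replicate 2 and 6 of each in KO replicate 3.

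**Figure D1:**
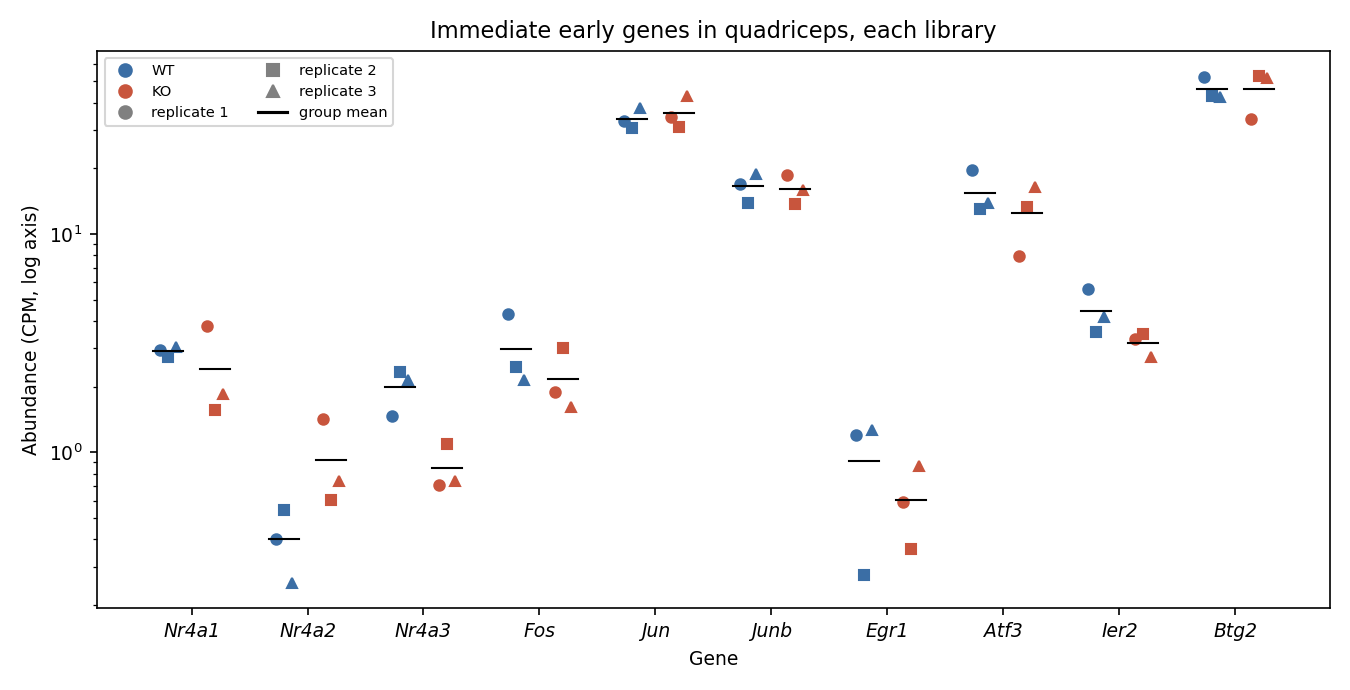
Abundance of the 10 genes in each library, in CPM on a log axis; colour gives the genotype, shape the replicate and the black line the group mean. The KO points of Nr4a3 sit below and those of Nr4a2 above all WT points, while Jun, Junb and Btg2 have near-equal means.

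Among the AP-1 genes, Jun and Junb were nearly level between the genotypes and Fos was low and scattered. Jun (ENSMUSG00000052684; chromosome 4, 95049034 to 95052222, minus strand) had 33.0, 30.6 and 37.6 CPM across WT and 34.4, 30.9 and 42.7 CPM across KO. The groups overlapped, and the log2 difference was 0.09 ± 0.12 (SE), with a 95% interval from -0.16 to 0.35. It ran from -0.05 without KO replicate 3 to 0.19 without KO replicate 2. Junb (ENSMUSG00000052837; chromosome 8, 84974484 to 84978718, minus strand), a partner that often restrains JUN, had 16.9, 13.9 and 18.8 CPM in WT and 18.7, 13.8 and 15.8 CPM in KO. These overlapped too, with a log2 difference of -0.04 ± 0.14 (SE) and an interval from -0.34 to 0.26, and it ran from -0.16 without KO replicate 1 to 0.06 without KO replicate 2. Exons of genes on the opposite strand cover 7.28% of the exonic bases of Jun and 7.52% of those of Junb, and whether reads there were counted by strand is not known.

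Fos (ENSMUSG00000021250; chromosome 12, 85473890 to 85477273, plus strand), the partner whose transcript is the classic early marker, had 32, 18 and 17 counts across WT and 16, 25 and 13 across KO. The groups overlapped, with means of 2.97 ± 1.15 (WT) and 2.17 ± 0.746 CPM (KO; SD, n = 3 each). WT replicate 1 was the highest of the 6. The log2 difference of -0.44 ± 0.33 (SE) became -0.08 without that library, -0.27 without KO replicate 3 and -0.75 without KO replicate 2. Per kilobase, Jun stood 5.67 to 12.9 times above Fos in the WT libraries and 7.55 to 19.6 times above it in the KO libraries. The window before the Fos start holds 2 CRE cores, at -129 and -66, and the sequence TATAAA from -33 to -28, which 7.59% of all windows hold on the sense strand.

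The zinc-finger factor Egr1 (ENSMUSG00000038418; chromosome 18, 34859823 to 34864984, plus strand) was barely detected. It had 9, 2 and 10 counts across WT and 5, 3 and 7 across KO, with overlapping groups. The sums were 21 counts in WT (95% Poisson interval 13.0 to 32.1) and 15 in KO (8.40 to 24.7). Egr1 did not meet the filter, and without it the log2 difference was -0.59 ± 0.54 (SE). It ran from -0.28 without WT replicate 3 to -1.01 without WT replicate 2, and leaving out any library but KO replicate 1 moved it by over 1.5 times. Ier2 (ENSMUSG00000053560; chromosome 8, 84661331 to 84662852, minus strand), an early nuclear protein encoded in 1 exon, had 42, 26 and 33 counts in WT and 28, 29 and 22 in KO. In CPM every KO library was below every WT library, but the gap was narrow, from 3.50 in KO replicate 2 to 3.56 in WT replicate 2. Its log2 difference was -0.48 ± 0.24 (SE), and -0.28 without WT replicate 1, its highest library.

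Relative to counting noise, Atf3 and Btg2 varied most of the 10 between libraries of 1 genotype, and they did so together. Atf3 (ENSMUSG00000026628; chromosome 1, 191170296 to 191218039, minus strand) had 19.6, 13.0 and 13.8 CPM across WT and 7.93, 13.3 and 16.3 CPM across KO. KO replicate 1 was far below the other libraries and the rest overlapped. The log2 difference of -0.31 ± 0.27 (SE) became -0.06 without KO replicate 1, -0.10 without WT replicate 1 and -0.54 without KO replicate 3. Btg2 (ENSMUSG00000020423; chromosome 1, 134075170 to 134079120, minus strand), the most abundant of the 10, had 52.6, 42.9 and 42.6 CPM in WT and 33.7, 52.9 and 51.6 CPM in KO. Its means were 46.1 ± 5.71 and 46.1 ± 10.7 CPM (SD, n = 3 each), with a log2 difference of 0.00 ± 0.18 (SE), and again KO replicate 1 was lowest. Without it the difference was 0.18.

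The windows before the RefSeq starts of this pair are shown with the same capitals, from chr1:191183334-191183583 for Atf3 and chr1:134079156-134079405 for Btg2, both on the minus strand. The Atf3 window lies inside the GENCODE span given above, and 7 of its bases are exonic in GENCODE M21.
Atf3: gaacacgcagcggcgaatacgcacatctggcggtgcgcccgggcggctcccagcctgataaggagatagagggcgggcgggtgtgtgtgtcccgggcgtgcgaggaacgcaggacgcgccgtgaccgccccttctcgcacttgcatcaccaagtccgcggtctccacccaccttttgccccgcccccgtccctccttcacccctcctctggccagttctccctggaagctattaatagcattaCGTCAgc
Btg2: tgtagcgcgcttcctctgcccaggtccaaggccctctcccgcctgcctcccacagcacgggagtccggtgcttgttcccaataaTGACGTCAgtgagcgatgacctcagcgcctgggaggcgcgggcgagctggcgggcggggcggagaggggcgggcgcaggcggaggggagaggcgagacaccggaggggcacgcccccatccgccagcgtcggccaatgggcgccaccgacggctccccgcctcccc
Btg2 holds the full palindrome TGACGTCA, from -166 to -159, which contains the core on both strands and occurs in 1.55% of windows. It was the only one of the 8 genes with a window to hold it. Atf3 holds 1 core, from -7 to -3. In all, 7 of the 8 windows held a core, and Jun was the exception. Egr1 and Ier2 had no window in the table. Of the other motifs searched on both strands, GCGNGGGCG, the form of site bound by EGR proteins, was in Nr4a1, Nr4a2 and Btg2 (4.70% of all windows). The site for SRF known as the CArG box (1.47% of windows), the AP-1 site TGACTCA (4.46%), the NR4A site AAAGGTCA (1.34%) and the full estrogen response element, GGTCA and TGACC spaced by 3 bases (0.0639%), were in none of the 8. The arm GGTCA alone was in Nr4a2, Atf3 and Btg2 (35.2%). These windows are rich in G and C, from 58.4% to 80.0% against a median of 52.4%, and a match is a description, not a bound site.

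Of the 8 genes that met the filter, 6 had a negative and 2 a positive fitted difference, with a median of -0.29, against 50.7% negative and a median of 0.00 over all 13848 genes tested. The median was -0.09 without WT replicate 1 and -0.19 without KO replicate 3. Over all 10 genes, fitted without the filter, 7 were negative and 3 positive with a median of -0.28. In edgeR's quasi-likelihood test no gene reached an adjusted p of 0.05, these 8 included: 0.00% of genes were called higher and 0.00% lower, while 590 had an unadjusted p under 0.05, DESeq2 called 2 and limma voom 0. The groups were fully separated, with KO lower, for Nr4a3 and Ier2, 2 of the 8, as for 5.45% of genes tested, and with KO higher for 0 of the 8 (4.96%). Among genes with any read these shares were 5.27% and 3.92%, and there Nr4a2 was the 1 member with KO higher. The contrast chose the set, and nothing is read from these counts.

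**Figure D2:**
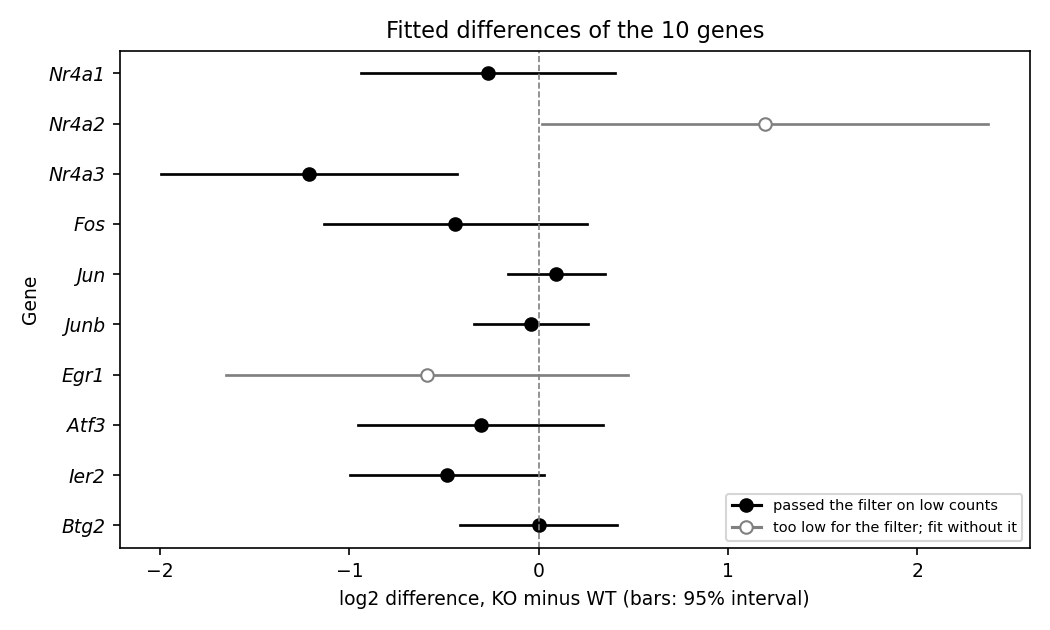
Fitted log2 difference of KO from WT for each of the 10 genes (x axis), with its 95% interval; open grey points mark Nr4a2 and Egr1, which were too low for the filter and come from a fit without it. Nr4a3 and Nr4a2 lie on opposite sides of 0, at -1.21 and 1.20, and Btg2 lies at 0.00.

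Per kilobase of exon, the 10 genes spanned a wide range of abundance. The order over the 6 libraries was Btg2 (mean 16.8 CPM per kilobase), Jun (10.9), Junb (7.09), Atf3 (6.49), Ier2 (2.51), Fos (1.09), Nr4a1 (0.757), Nr4a3 (0.236), Egr1 (0.170) and Nr4a2 (0.163). The ranges of neighbours over the 6 libraries overlapped, except between Jun and Junb and between Nr4a1 and Nr4a3. Compared within each library, Btg2 was nonetheless above Jun, Atf3 above Ier2 and Ier2 above Fos every time. The closest of these for Btg2 and Jun was KO replicate 1, at 12.3 and 10.8. The remaining neighbours changed order between libraries, which left their order unresolved. Btg2, Jun, Junb and Atf3 thus had the highest means, with Atf3 above Junb in WT replicate 1 and KO replicate 3, and the NR4A receptors and Egr1 the lowest.

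Variation within a genotype does not use the contrast that chose the set. For Nr4a3 it does come from the same counts, so its index is not independent of the choice. It was measured by the index of dispersion, the variance between libraries of 1 group over that expected from counting alone, where 1 means counting noise only. Btg2 had an index of 13.1, against a median of 1.88 among the 1905 genes with a read whose mean count lay within 1.5 times its own, 3.94% of which were higher. Atf3 had 9.14 against 1.35, and 2.15% of the genes near its mean count were higher. Jun had 5.60 (median of genes near its mean 1.69), Junb 2.92 (1.36), Fos 2.75 (1.09) and Nr4a1 2.54 (1.10). For Btg2, Atf3 and Nr4a1, KO replicate 1 lay furthest from its group mean, by -0.42, -0.57 and 0.64 in log2(CPM + 0.5). Their indices thus rest in part on that library, and values without it are not given here. Nr4a3, by contrast, had an index below 1, at 0.595, and Nr4a2 at 1.07 and Ier2 at 1.15 were close to 1, while Egr1 had 1.68. Over the 10 genes the median index was 2.65, against 1.43 over all genes tested, and the median SD of log2(CPM + 0.5) within groups was 0.312 against 0.167. Low counts raise that SD, and Nr4a1, Nr4a2, Nr4a3, Fos and Egr1 had the lowest counts of the 10.

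**Figure D3:**
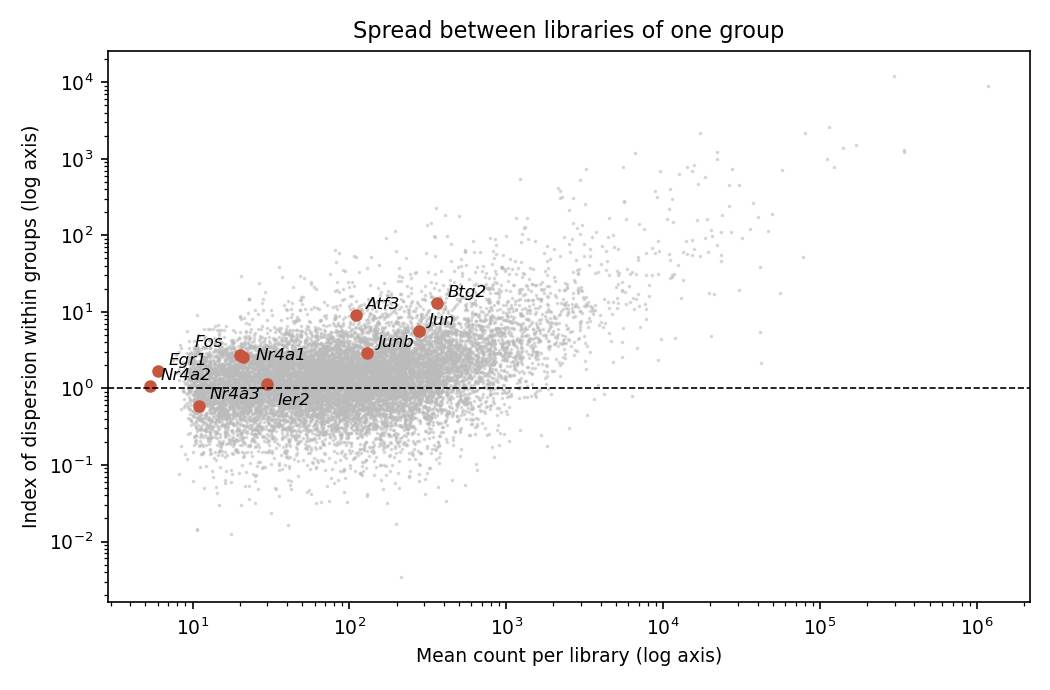
Index of dispersion within groups against the mean count per library for all genes tested (grey) and the 10 genes (red, named), both axes logarithmic; the dashed line at 1 marks counting noise. Atf3 (9.14) and Btg2 (13.1) sit high for their counts, and Nr4a3 (0.595), whose counts chose the set, sits below the line.

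No common rise and fall of the 10 genes was seen from library to library. Counting noise pulls r toward 0 for the members with few counts, so this does not show that they vary apart. Deviations of log2(CPM + 0.5) from the group mean gave 45 pairs of genes, 22 with a positive and 23 with a negative Pearson r, and a median r of -0.07 (6 libraries, of whose deviations 4 are free to vary, so a description only). The highest r was 0.95, for Atf3 and Btg2, which deviated the same way in all 6 libraries. It was 0.84 without KO replicate 1 and 0.94 without WT replicate 1. Fos and Ier2 followed with 0.84, both highest in WT replicate 1 and KO replicate 2 of their groups, and 0.58 without WT replicate 1. Nr4a1 and Nr4a2 had 0.81, which rested on KO replicate 1 and was -0.25 without it. The lowest r was -0.88, for Nr4a1 and Btg2, and it was 0.03 without KO replicate 1. KO replicate 1 thus held the highest Nr4a1, Nr4a2 and Junb of its group and the lowest Nr4a3, Atf3 and Btg2. This is the library with the high mitochondrial share, and the part of that share in these values was not tested.

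**Figure D4:**
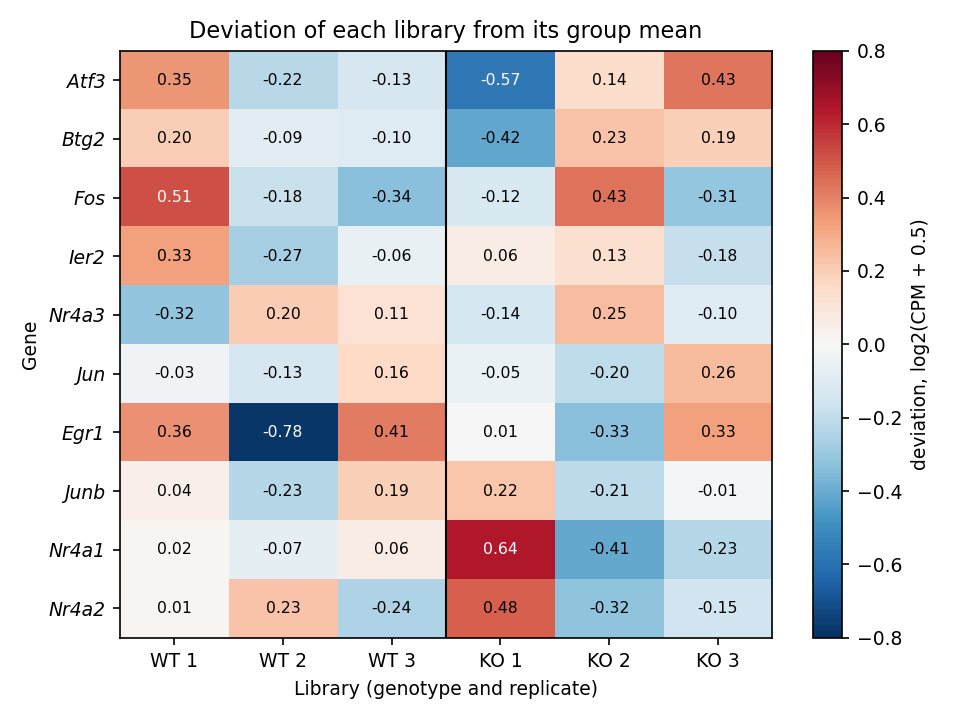
Deviation of each library (columns) from the mean of its own genotype, in log2(CPM + 0.5), for the 10 genes (rows); red is above and blue below the group mean. Atf3 and Btg2 share the sign in every column, and KO replicate 1 is low for both (-0.57 and -0.42) and high for Nr4a1 (0.64).

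Gene structure was not used in the choice. Gene spans ran from 1.52 kilobases for Ier2 to 47.7 for Atf3, with a median of 4.70, against a median of 17.4 over 21951 protein-coding genes. They were below that median in 7 of the 10, all but Nr4a1, Nr4a3 and Atf3, and Jun and Ier2 have 1 exon, as 6.71% of protein-coding genes do. The AU-rich pentamer ATTTA, part of elements that speed transcript decay, occurred in the 3′ untranslated region of 9 of the 10, Ier2 being the exception, and of 71.1% of 11308 genes tested. The longer TATTTAT was in Nr4a2, Nr4a3, Fos, Jun, Atf3 and Btg2, 6 of the 10, against 30.9% of genes tested. Nr4a3 and Fos each held it at 2 positions. Per kilobase the median was 2.40 pentamers against 1.35.

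Differences of other immediate early genes were spread around 0. Of 40 listed, 29 met the filter, 14 with a positive and 15 with a negative difference, a median of 0.00 and 0 called, where 0.00% of all genes were called in either direction. Klf6, a zinc-finger factor of injury responses, was at 42.2 ± 6.41 CPM in WT and 36.5 ± 2.84 in KO. Bhlhe40, a repressor tied to the clock and hypoxia, was at 44.5 ± 6.21 and 58.6 ± 14.1 CPM, and Klf4 at 7.33 ± 0.335 and 6.17 ± 0.533 CPM (SD, n = 3 each). None passed (adjusted p = 0.989 for each in edgeR's test). Leaving out 1 library at a time moved the number of negative differences between 11 and 19 and the median between -0.19 and 0.09.

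Upstream, 35 of 36 kinases and factors of the ERK, RSK, SRF and CREB routes met the filter, with 16 positive and 19 negative differences, a median of -0.02 and 0 called. The CREB coactivator Crebbp was at 33.1 ± 1.497 CPM in WT and 27.6 ± 0.667 in KO. The p38 kinase Mapk14 was at 42.6 ± 2.49 and 50.4 ± 2.29 CPM, and Rps6ka4, the kinase MSK2, at 6.16 ± 0.839 and 8.24 ± 0.792 CPM (SD, n = 3 each). None of the 3 passed (adjusted p = 0.989 for each in edgeR's test). The groups were fully separated with KO lower in 1 of the 35, Crebbp (5.45% of genes tested), and with KO higher in 3, Mapk14 and Rps6ka4 among them (4.96%). With no scaling the median was 0.00 and 17 differences were negative, and with 1 library left out 16 to 22 were.

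Partners of the encoded proteins were split evenly, 8 positive and 8 negative among the 16 of 20 that met the filter, with 0 called. Rxrg, a receptor that pairs with NR4A1 and NR4A2, was at 13.4 ± 2.11 CPM in WT and 10.9 ± 0.619 in KO. Nab1, a co-repressor of EGR proteins, was at 12.5 ± 1.64 and 14.9 ± 0.885 CPM, and Atf2, a JUN partner, at 17.8 ± 1.79 and 15.3 ± 0.869 CPM (SD, n = 3 each). These 3 had an adjusted p of 0.989 in edgeR's test as well.

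For the relatives of Btg2 and the machinery of mRNA decay, the fitted differences were negative and none was called. Of 18 listed genes 17 met the filter, and all 17 had a negative difference, with a median of -0.08, against 50.7% of all genes tested and a median of 0.00. The count was 17 as well with RLE or no scaling, and 13 (without WT replicate 3) to 16 when 1 library was left out. Cnot3, a subunit of the CCR4-NOT deadenylase, was at 6.13 ± 0.138 CPM in WT and 4.04 ± 0.338 in KO, a log2 difference of -0.60 ± 0.19 (SE). Its catalytic subunit Cnot7 was at 26.6 ± 1.33 and 23.0 ± 1.51 CPM and its scaffold Cnot1 at 74.0 ± 4.74 and 67.4 ± 1.70 CPM (SD, n = 3 each). These 3 were among 4 of the 17 whose KO libraries were all below WT, against 5.45% of genes tested, and none passed (adjusted p = 0.989 for each in edgeR's test). Btg2 itself was at 0.00. At the middle of the list, the difference of -0.08 had an SE of 0.11. This list was chosen with earlier results of these data known, and several of its genes encode subunits of 1 complex. No test of the list was run, and nothing is read from these counts.

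Glucose and lipid genes listed as linked to NR4A receptors in muscle were spread around 0, 10 positive and 8 negative of 18, with a median of 0.01 and 0 called. Cd36, a fatty acid transporter, was at 1558 ± 165 CPM in WT and 1351 ± 164 in KO, and Pgam2, a muscle enzyme of glycolysis, at 332 ± 12.5 and 361 ± 24.8 CPM (SD, n = 3 each). Ppargc1a, a coactivator of mitochondrial genes, had 564, 576 and 613 counts across WT and 498, 539 and 264 across KO. Its log2 difference of -0.56 ± 0.27 (SE) did not pass (adjusted p = 0.989 in edgeR's test, as for Cd36 and Pgam2) and was -0.32 without KO replicate 3, the lowest library. Heat shock genes, which share induction by stress with Atf3, had 8 positive and 4 negative differences of 12 and 0 called. Hsph1, a co-chaperone, was at 19.9 ± 2.85 CPM in WT and 24.1 ± 1.26 in KO, Hsp90aa1 at 48.8 ± 1.92 and 52.7 ± 4.07 CPM, and Hspe1 at 23.7 ± 1.44 and 25.0 ± 1.97 CPM (SD, n = 3 each), none of which passed (edgeR adjusted p of 0.989, 0.993 and 0.993).

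**Figure D5:**
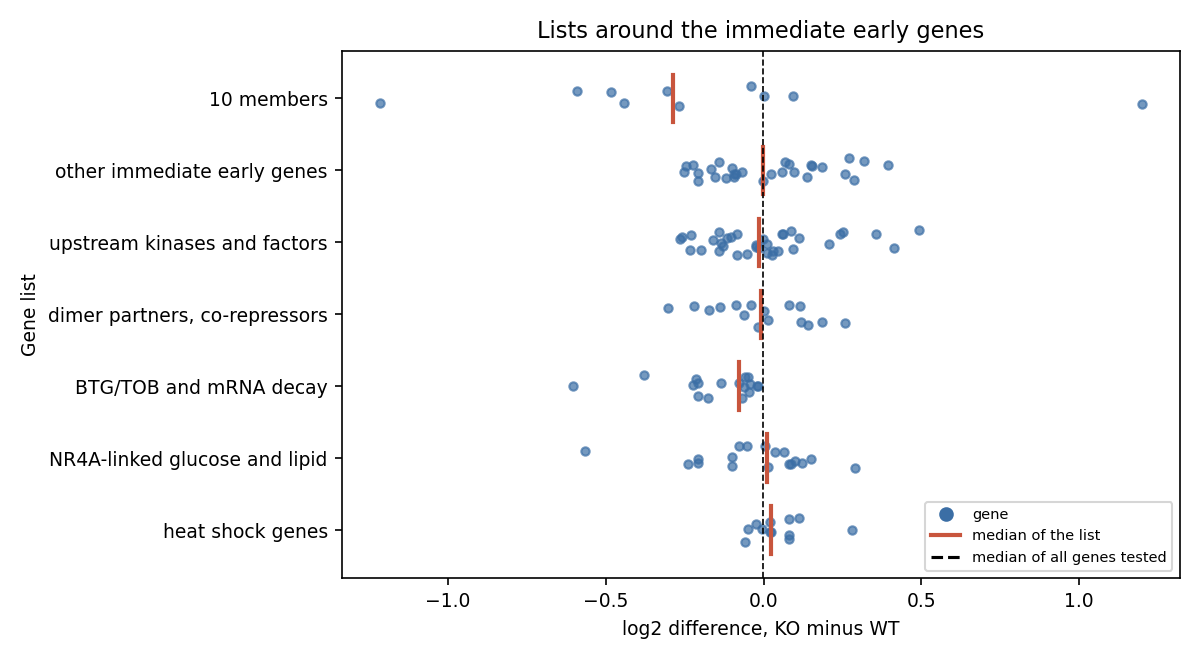
Fitted log2 differences of KO from WT (x axis) for the 10 genes and each list around them; points are genes, red bars list medians and the dashed line the median of all 13848 genes tested. The 17 BTG/TOB and mRNA decay genes all lie below 0, while the other 5 lists straddle it. The lists were chosen with earlier results of these data known.

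Of 8416 other named genes of at least 5 CPM, those whose log2 CPM over the 6 libraries was most like that of Nr4a3 included Stim2 (Pearson r = 0.998), Fam36a (0.991), Larp1b (0.982) and Socs6 (0.978). This profile holds the WT to KO difference that chose the set, so genes that match it were lower in KO too, and the values are a description only. For the mean within-group deviation of the 8 genes that met the filter, the 10 closest were Sox6, Rsrc1, Ehd1, Copz2, Ttc27, Tecpr2, Tmem5, C1qb, Cpped1 and Aff4, with r from 0.979 to 0.999, none of them on the list of other immediate early genes. That mean deviation was small, from -0.12 to 0.14. Only 4 deviations are free to vary and 8416 genes were searched, so r this high can arise by chance. These names too are a description only.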

How the data were processed

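The labels' protocols give Trizol for the RNA and an Illumina TruSeq kit for the libraries. TopHat 1.3.3, edgeR and mm10 are named in the submitters' processing notes without role or order. How reads were counted, and whether by strand or with multi-mapped reads, was not given in the sources used here. Whole-number read counts by Ensembl gene, not normalized, were deposited in 1 table. The authors also deposited, for each gene, a log2 fold change, a log2 CPM, and raw and adjusted p-values, whose test is not stated. Of 37506 rows, 29 repeated an ID with identical counts and were merged. No pair of libraries agreed within counting noise, so all 6 libraries were counted. The lowest chi-square per gene was 3.46 within a genotype. Across genotypes it was lower, 3.11, for WT replicate 2 and KO replicate 2.

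The whole table was fitted with edgeR 4.0.16 in R 4.3.3: filterByExpr, TMM scaling, robust quasi-likelihood fit on genotype, two-sided F-test, Benjamini-Hochberg adjustment over 13848 genes, threshold 0.05. The same fit was afterwards run on simulated counts drawn with the means, library sizes and dispersions of these data. That recovery is not given here. CPM values use TMM-scaled library sizes; SE is the log2 difference over the square root of F. Poisson intervals and floors cover counting error only. Lengths and coordinates are from GENCODE M21, promoter windows from RefSeq on GRCm38.p6 (8 of 10 genes matched). The members and lists were chosen with earlier results of these data known. Named were the members, Esr1, the 3 smallest p of each list and the genes of most similar pattern among those of at least 5 CPM; genes outside this rule are named only where a count is small. One gene that the rule names is not reported here. Alternatives were RLE and no scaling, other filters, DESeq2 1.42.0, limma 3.58.1 voom, a replicate block and leaving out each library; list counts by library and scaling were added after seeing the data. Figures were made with matplotlib 3.10.9.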

Additional observations from a re-analysis of the deposited data

How the results depend on the processing

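Depth limits the low members most: 3 counts, the floor for a library, are 0.350 to 0.406 CPM, and Nr4a2 (WT replicates 1 and 3) and Egr1 (WT replicate 2 and KO replicate 2) were each at or under that count in 2 libraries. No gene was called in the quasi-likelihood test, while DESeq2 called 2 (Pvalb and Actn3, named because they are so few), the fit without a filter 19, and leaving out 1 library between 0 and 3. The 3 came without WT replicate 1 and were Actn3, Pvalb and Gm23624. The replicate number as a block called 0, and the numbers did not pair the samples (r of same-numbered deviations -0.01, 0.16 and 0.04 across genes); it changed no call of a named gene. The median over the 8 tested members was -0.29, ran from -0.36 to -0.09 with 1 library left out and was -0.36 to -0.27 otherwise; it was smallest in size without WT replicate 1. The median within-group SD of 0.312 fell to 0.246 without KO replicate 1. Signs turned for Btg2, Junb and Jun, each near 0: Btg2 was -0.0224 with limma voom and -0.0135 with the block, and between -0.11 and 0.18 with 1 library left out; Junb ran from -0.162 to 0.0637 and Jun from -0.0464 to 0.192. The cause was not tested. Nr4a3 ran from -1.43 to -1.09 over its 13 alternatives and Nr4a2 from 0.74 to 1.47 over 11. No member passed 0.05 in any of them; Esr1 passed without the filter. Heat shock genes had 4 negative differences, and 2 without KO replicate 3.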
